A study of Drosophila melanogaster with 6 samples.

Results

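The 49 genes described here carry the DNA replication and cell cycle machinery of Drosophila S2 cells. They were taken as a fixed list of CG numbers, the gene identifiers of the annotation, and all 49 were found among the 14012 genes of the table. The list holds 21 genes of DNA replication, 11 genes of cell cycle control and 17 genes of mitosis, and the replication genes were set apart from the mitosis genes. S2 is a cell line from late embryonic Drosophila with features of blood cells (the S2-DRSC stock). PARP1 adds chains of ADP-ribose to proteins (PARylation). RNA of 3 groups of 2 libraries was compared: non-treated control cells, cells treated with double-stranded RNA against PARP1 (PARP1 KD, labelled 100 and 500 but in nanograms in the titles and micrograms in the descriptions), and cells given PJ34, an inhibitor of PARylation, at 10 or 0.3 µM. The table does not say which library had which dose, so library numbers follow the column names and doses were not compared. The control cells had received no double-stranded RNA of another sequence, so a response to any double-stranded RNA and a response to less PARP1 cannot be told apart.

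DNA replication begins at origins that are marked by the origin recognition complex. Cdc6 and the product of dup, the fly Cdt1, then load the Mcm helicase there, geminin holds dup back outside the licensing period, and Cdc45 helps to turn the loaded helicase into its active form. E2F1 with its repressor Rbf controls the transcription of many replication genes, cyclin E with Cdk2 starts S phase, and cyclins A and B with Cdk1 and the phosphatase String start mitosis. Transcripts of both kinds are made by cycling cells, and S2 cells cycle continuously in culture.

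Levels were FPKM, fragment numbers scaled by transcript length and by library size, summed here over the transcripts of a gene. Tests were made with limma on log2(FPKM + 1) over the 7308 genes whose mean reached 1 FPKM, and a gene was called at a Benjamini-Hochberg adjusted p under 0.05. All 49 genes passed the filter, and 0 of them was listed at 0 in any library. Their transcripts were 818 to 6849 bases long, with a median of 2595 bases. 14 of the 49 overlap another gene by span (Orc1, Orc5, Orc6, Cdc6, dup, Cdc45, PolD1, Cdk2, CycA, Bub3, mad2, fzy, thr and glu), and their values are uncertain to that extent. In bulk RNA, a change in the share of cells in a cell cycle phase and a change in RNA per cell cannot be told apart.

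The libraries differed in ways that the groups do not describe. Estimated depths lay between 0.883 and 1.11 of that of control library 1. Parp1 (CG40411) was at 51.6 and 29.9 FPKM in the controls, 16.7 and 10.2 after PARP1 KD and 39.3 and 50.2 after PJ34, lower in both PARP1 KD libraries than in both controls (log2 difference −1.51 ± 0.55 SE, limma adjusted p = 0.9996). The 6 hemocyte markers summed to 57.3 to 287 FPKM, but only 4 of them had a mean of at least 1 FPKM. Means were 82.1 FPKM for crq, 46.9 for Pxn, 40.2 for srp, 9.27 for Sr-CI, 0.88 for NimC1 and 0.87 for Hml. Of these srp, the blood cell GATA factor, was at 4.37 to 71.7 FPKM. The 2 fat body markers summed to at most 0.0213 FPKM and the 3 neuron markers to 1.15 to 8.23. The 3 muscle markers summed to 2.74 to 13.0 FPKM, mostly from Mef2 with a mean of 9.43. In transcript shares each control was nearer to a treated library than to the other control: over 1612 genes with several transcripts, more than 50% of the FPKM moved between transcripts in 0.558% of genes from control library 1 to PJ34 library 1 and in 1.24% from control library 2 to PARP1 KD library 1, but in 9.06% between both controls, beside 0.993% for the PARP1 KD pair and 3.66% for the PJ34 pair. Levels in both controls are therefore given below. Median differences between a treated library and a single control are given for control library 2 only, although PJ34 library 1 was nearer to control library 1 in these shares.

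The 49 genes differed widely between the libraries of a group. Control library 2 was below control library 1 in 46 of 49 genes, with a median log2 difference of −1.06, against −0.32 for the 7009 tested genes with a known length. PARP1 KD library 2 was below PARP1 KD library 1 in 49 of 49, with a median of −0.38, against −0.29 for all genes, of which 6426 of 7009 were lower. PJ34 library 2 was below PJ34 library 1 in 45 of 49, with a median of −1.75, against −1.19 for all genes. The control and PJ34 differences went with transcript length, in these genes as in all genes: Spearman's rho across the 49 genes, which share their libraries and are not independent replicates, was −0.614 for the control pair, 0.202 for the PARP1 KD pair and −0.501 for the PJ34 pair, and across 7009 genes −0.520, −0.145 and −0.648. The 6 genes with transcripts under 1200 bases (mad2, pim, Orc6, geminin, Cdk1 and aurB) had a median of 0.41 between the PJ34 libraries, and 4 of them were higher in PJ34 library 2, while all 43 longer genes were lower in it. The cause of the length trend was not tested, and values with the trend removed (length corrected) are given beside the values as deposited.

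**Figure D1:**
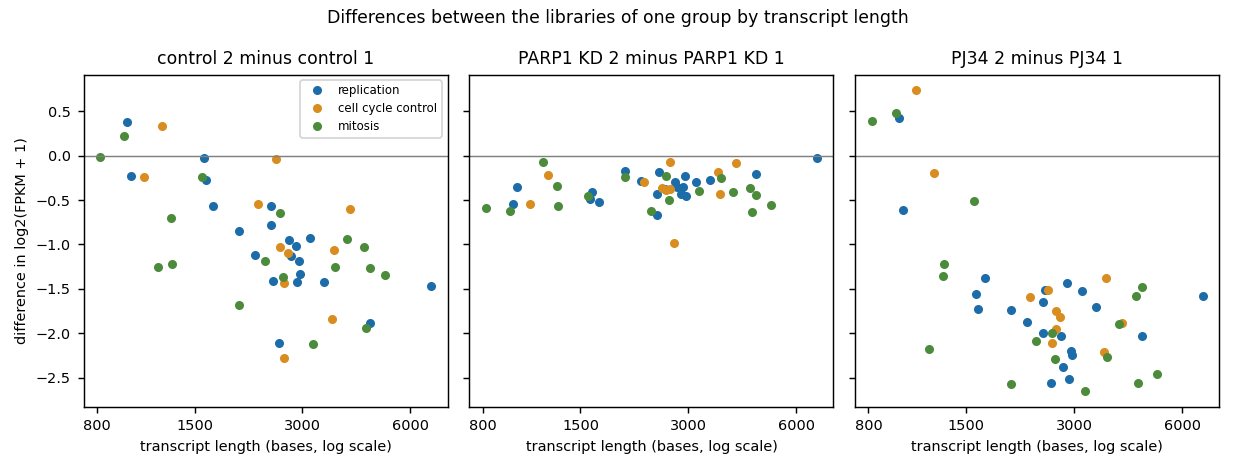
Difference in log2(FPKM + 1) between the 2 libraries of each group (y axis) against transcript length in bases on a log scale (x axis), 1 point per gene, coloured by set. Long transcripts lie lowest in control library 2 against 1 and in PJ34 library 2 against 1, and all 49 points of the PARP1 KD panel lie below 0.

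**Figure D2:**
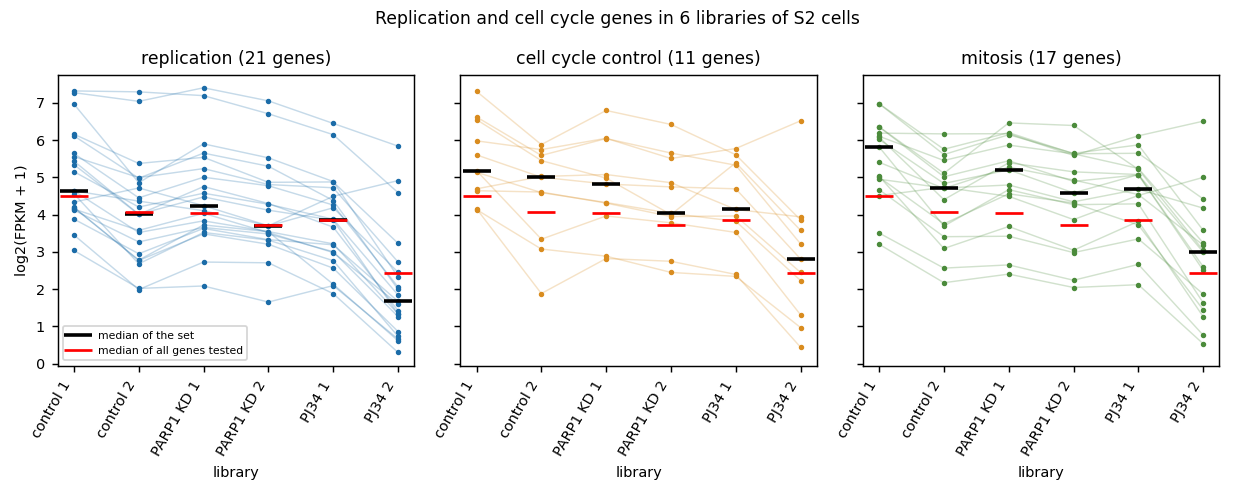
Level of each gene as log2(FPKM + 1) (y axis) in the 6 libraries (x axis), with 1 line per gene, for the 21 replication, 11 cell cycle control and 17 mitosis genes. Black bars are the median of the set and red bars the median of the 7308 genes tested; the replication median in PJ34 library 2 is 1.67, below the median of all genes of 2.44.

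The 6 subunits of the origin recognition complex had a median log2 difference of −1.17 between PJ34 and control, nearer to the −1.08 of all genes tested than any other role in replication. Orc1 (CG10667), an ATPase subunit, was at 13.7 and 6.72 FPKM in the controls, 11.4 and 9.03 after PARP1 KD and 8.12 and 2.18 after PJ34. Orc2 (CG3041) was at 16.4 and 8.61 FPKM without treatment, 11.6 and 10.1 with PARP1 KD and 7.02 and 1.40 with PJ34, and PJ34 was below both controls in each library. Orc3 (CG4088) had the lowest level of the 6, at 7.20 and 3.05 FPKM in the controls, 3.23 and 2.14 after PARP1 KD and 3.27 and 0.577 after PJ34. For Orc1 and Orc3 PJ34 library 1 lay between the controls, and PJ34 library 2 lay below them. Orc4 (CG2917) was at 23.9 and 19.5 FPKM without treatment, 16.2 and 11.9 with PARP1 KD and 17.2 and 4.48 with PJ34, so that both treated groups lay below both controls. Orc5 (CG7833) was at 16.7 and 10.9 FPKM in the controls, 15.4 and 10.4 after PARP1 KD and 6.88 and 2.03 after PJ34. Orc6 (CG1584), a short transcript, was at 19.2 and 25.2 FPKM without treatment, 17.9 and 12.0 with PARP1 KD and 21.5 and 29.1 with PJ34. Unlike the other 5 subunits Orc6 had its highest level in PJ34 library 2, and like Orc4 it was lower in both PARP1 KD libraries than in both controls.

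The Mcm2 to Mcm7 proteins form the ring of the replicative helicase. Mcm2 (CG7538) was at 42.3 and 15.1 FPKM in the controls, 21.2 and 16.4 after PARP1 KD and 13.4 and 1.52 after PJ34, and Mcm3 (CG4206) at 34.6 and 17.4 FPKM without treatment, 22.8 and 18.4 with PARP1 KD and 13.7 and 2.58 with PJ34. The gene for Mcm4, dpa (CG1616), was at 48.9 and 20.9 FPKM in the controls, 31.1 and 26.4 after PARP1 KD and 18.1 and 3.16 after PJ34. In these 3 genes both PJ34 libraries lay below both controls, while the PARP1 KD libraries lay between the controls. Mcm5 (CG4082) was at 46.1 and 30.8 FPKM without treatment, 36.6 and 27.0 with PARP1 KD and 25.3 and 5.62 with PJ34. Mcm6 (CG4039, X chromosome, 6568421 to 6571205 of dm3) was at 68.2 and 30.5 FPKM in the controls, 49.2 and 38.3 after PARP1 KD and 19.8 and 2.98 after PJ34, and Mcm7 (CG4978) at 70.4 and 40.4 FPKM without treatment, 45.4 and 28.1 with PARP1 KD and 28.4 and 8.38 with PJ34. All 6 helicase genes were thus lower in both PJ34 libraries than in both controls, as were 54.1% of all genes tested, although PJ34 library 1 was below control library 2 by far less than PJ34 library 2 was.

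Licensing genes were likewise lower in both PJ34 libraries than in both controls. Cdc6 (CG5971, chromosome 3L, 8624608 to 8627181) was at 17.2 and 5.86 FPKM in the controls, 12.2 and 10.6 after PARP1 KD and 3.38 and 0.531 after PJ34, and dup (CG8171) at 39.5 and 15.0 FPKM without treatment, 26.0 and 18.6 with PARP1 KD and 11.7 and 1.68 with PJ34. For geminin (CG3183), the highest of the licensing genes, levels were 154 and 131 FPKM in the controls, 168 and 132 after PARP1 KD and 86.3 and 56.2 after PJ34. Cdc45 (CG3658) was at 23.8 and 10.5 FPKM without treatment, 13.2 and 10.7 with PARP1 KD and 8.27 and 1.52 with PJ34. PJ34 lay below the controls in all 4, against 54.1% of all genes tested, and PARP1 KD overlapped the controls in all 4. The lowest estimated fragment numbers behind these values were in PJ34 library 2, with 28.3 fragments for Cdc6 and 72.5 for Cdc45, so their fold differences there carry more counting error than those of the other genes of this role.

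The catalytic subunits of DNA polymerases alpha, delta and epsilon have long transcripts of 4624, 3440 and 6849 bases. PolA1 (CG6349) was at 22.6 and 5.40 FPKM in the controls, 10.5 and 8.95 after PARP1 KD and 5.79 and 0.659 after PJ34, PolD1 (CG5949) at 17.3 and 5.81 FPKM without treatment, 10.2 and 8.21 with PARP1 KD and 4.90 and 0.815 with PJ34 and PolE1 (CG6768) at 9.95 and 2.96 FPKM in the controls, 5.61 and 5.52 after PARP1 KD and 2.68 and 0.228 after PJ34. PJ34 library 1 was close to control library 2 in all 3, and PolA1 overlapped. Ribonucleotide reductase makes deoxyribonucleotides from a large and a small subunit. RnrL (CG5371) was at 124 and 28.0 FPKM without treatment, 58.6 and 45.0 with PARP1 KD and 28.6 and 4.02 with PJ34, and RnrS (CG8975, chromosome 2R, 7870645 to 7872948) at 159 and 156 FPKM in the controls, 145 and 103 after PARP1 KD and 69.8 and 23.1 after PJ34. The subunits differed in how well the controls agreed: RnrS had the controls at 157 ± 1.95 FPKM (mean ± SD, n = 2) and both PJ34 libraries well below, whereas RnrL had the controls at 76.1 ± 68.0 FPKM and PJ34 library 1 level with control library 2.

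Among the genes of cell cycle control, the G1 and S phase regulators came first. E2f1 (CG6376), the activating transcription factor of S phase genes, was at 47.6 and 31.1 FPKM without treatment, 27.3 and 25.8 with PARP1 KD and 24.8 and 5.99 with PJ34. Rbf (CG7413), its repressor, was at 35.2 and 9.12 FPKM in the controls, 14.6 and 12.7 after PARP1 KD and 10.5 and 1.47 after PJ34, and dap (CG1772), an inhibitor of cyclin E with Cdk2, at 23.9 and 23.3 FPKM without treatment, 18.8 and 14.4 with PARP1 KD and 14.6 and 4.45 with PJ34. In E2f1 and dap both treated groups lay below both controls, while Rbf overlapped. CycD (CG9096), the growth-linked cyclin of G1, was at 34.2 and 23.1 FPKM in the controls, 19.0 and 15.4 after PARP1 KD and 13.1 and 3.68 after PJ34. CycE (CG3938) was at 16.6 and 7.42 FPKM without treatment, 6.38 and 4.45 with PARP1 KD and 4.06 and 0.951 with PJ34, and its partner Cdk2 (CG10498) at 24.8 and 31.5 FPKM in the controls, 32.7 and 28.0 after PARP1 KD and 16.6 and 14.3 after PJ34. Both cyclins were lower in all 4 treated libraries than in both controls, and Cdk2 was lower after PJ34 alone.

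The G2 and M phase regulators did not share a pattern. CycA (CG5940, chromosome 3L, 11820296 to 11826677) was at 92.7 and 42.7 FPKM without treatment, 30.5 and 15.0 with PARP1 KD and 41.0 and 10.9 with PJ34, lower in all 4 treated libraries than in both controls. CycB (CG3510) was at 97.5 and 47.1 FPKM in the controls, 64.8 and 49.3 after PARP1 KD and 39.1 and 8.26 after PJ34, and CycB3 (CG5814) at 16.8 and 2.68 FPKM without treatment, 6.06 and 5.71 with PARP1 KD and 4.25 and 0.352 with PJ34. CycB was lower after PJ34 and not after PARP1 KD, and in CycB3 the controls were so far apart that both treated groups overlapped them. Cdk1 (CG5363), the mitotic kinase, was at 62.1 and 52.6 FPKM in the controls, 65.2 and 44.4 after PARP1 KD and 53.7 and 90.6 after PJ34, with its highest value in PJ34 library 2. For stg (CG1395), the Cdc25 phosphatase String, levels were 157 and 57.8 FPKM without treatment, 110.1 and 84.6 with PARP1 KD and 47.7 and 13.5 with PJ34. The Cdk1 transcript has 1082 bases and the stg transcript 2668, and in PJ34 library 2 Cdk1 was higher and stg lower than in PJ34 library 1. With the length trend removed Cdk1 was still highest in PJ34 library 2, at 6.92 on the log2 scale against 5.56 to 5.88 in the other libraries. The cause of this difference was not tested.

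The mitosis genes began with the kinases. Levels of polo (CG12306) were 125 and 47.9 FPKM in the controls, 69.7 and 49.003 after PARP1 KD and 57.5 and 10.9 after PJ34, and those of aurA (CG3068), the centrosome kinase, 29.9 and 25.2 FPKM without treatment, 26.7 and 19.3 with PARP1 KD and 24.6 and 17.04 with PJ34. The kinase of the chromosomal passenger complex, aurB (CG6620, chromosome 2L, 10856787 to 10858082), was at 80.9 and 33.5 FPKM in the controls, 87.1 and 83.0 after PARP1 KD and 36.1 and 7.22 after PJ34. It was the only 1 of the 49 genes that was higher in both PARP1 KD libraries than in both controls, by 87.1 and 83.0 against 80.9 at the nearest. Incenp (CG12165), which anchors aurB, was at 67.7 and 42.8 FPKM without treatment, 57.3 and 48.6 with PARP1 KD and 36.8 and 8.43 with PJ34, with PARP1 KD between the controls. BubR1 (CG7838), of the spindle checkpoint, was at 24.5 and 9.60 FPKM in the controls, 9.69 and 6.88 after PARP1 KD and 9.17 and 2.64 after PJ34. SMC2 (CG10212), a condensin subunit, was at 31.1 and 12.5 FPKM without treatment, 22.6 and 18.8 with PARP1 KD and 12.2 and 1.73 with PJ34. The other 11 mitosis genes (borr, Bub1, Bub3, mad2, fzy, pim, thr, glu, Top2, pav and tum) ranged from 0.444 to 125 FPKM. Of these the short transcripts mad2, the spindle checkpoint gene, and pim, which encodes securin, had their highest level in PJ34 library 2, at 90.0 and 31.0 FPKM.

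PARP1 KD was compared with control to see whether knockdown of PARP1 goes with a change in the level of these transcripts. limma called 0 of 49 genes, as it called 0.0% of all genes tested, and 0 of 49 had an unadjusted p of at most 0.05, against 2.86% of all genes. Both PARP1 KD libraries lay above both controls in 1 of 49 genes (aurB), against 10.5% of all genes, and below both in 9 of 49 (18.4%: CycA, CycE, CycD, Orc6, Orc4, pim, E2f1, dap and RnrS), against 34.9%. These 9 included 5 of the 11 cell cycle control genes, 3 of 21 replication genes and 1 of 17 mitosis genes. The median log2 difference was −0.20 for replication, −0.39 for cell cycle control and −0.40 for mitosis genes, beside −0.28 for all genes tested.

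The genes with the smallest p in each direction were CycA and CycE below, and aurB and Cdk2 above control. CycA had a log2 difference of −1.51 ± 0.71 (SE, limma adjusted p = 0.9996) and CycE of −0.94 ± 0.72 (adjusted p = 0.9996). For aurB it was 0.69 ± 0.72 and for Cdk2 0.11 ± 0.52 (both with an adjusted p of 0.9996). These 4 differences were not called. Even so, CycA and CycE were lower in each knockdown library than in either control, and aurB was higher, while Cdk2 overlapped. The SE was pooled over all 6 libraries. With only the 4 libraries compared, the SE of CycA was 0.45. The limma adjusted p was then 0.106 for CycA, 0.445 for CycE, 0.491 for aurB and 0.942 for Cdk2. In transcript shares the PARP1 KD libraries were nearer to control library 2 than to control library 1. More than 50% of the FPKM moved in 1.24% and 4.84% of genes from control library 2, and in 19.1% and 24.3% from control library 1. Set against control library 2 alone, PARP1 KD library 1 was higher in 18 of 21 replication genes (median 0.46) and 16 of 17 mitosis genes (median 0.43). PARP1 KD library 2 was higher in 14 of 21 (median 0.11) and 7 of 17 (median −0.12). Over all 7009 genes with a length the medians of these pairs were 0.01 (3580 higher) and −0.27 (2265 higher). The sign of the replication median therefore depended on the control: it was 0.29 when control library 1 was left out and −0.74 when control library 2 was.

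PJ34 was compared with control to see whether treatment with an inhibitor of PARylation goes with a change in the same transcripts. limma called 0 of 49 genes, against 0.643% of all genes. At an unadjusted p of at most 0.05 there were 23 of 49 (46.9%), all lower after PJ34 (14 replication, 5 cell cycle control and 4 mitosis genes), against 31.1% of all genes. Both PJ34 libraries lay below both controls in 31 of 49 genes (63.3%), against 54.1% of all genes, and above both in 0 of 49, against 13.1%. By set these were 16 of 21 replication (76.2%), 8 of 11 cell cycle control and 7 of 17 mitosis genes. Median log2 differences were −1.77, −1.60 and −1.43 in that order, beside −1.08 for all genes tested, which were lower as well.

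RnrS and Mcm6 had the smallest p below control, with log2 differences of −1.94 ± 0.55 (SE, limma adjusted p = 0.111) and −2.36 ± 0.77 (adjusted p = 0.132). Above control these were Cdk1, at 0.28 ± 0.48 (adjusted p = 0.638), and Orc6, at 0.18 ± 0.56 (adjusted p = 0.808). PJ34 library 1 against control library 2, a pair whose difference had a rho with length of −0.00664 across 7009 genes, gave smaller differences. PJ34 library 1 was lower in 17 of 21 replication genes (median log2 difference −0.26) and in 9 of 17 mitosis genes (median −0.03). Over all genes the median was −0.18, with 4494 of 7009 lower. In transcript shares, however, PJ34 library 1 was nearer to control library 1 (0.558% of genes with more than 50% moved) than to control library 2 (8.50%). Against control library 1, PJ34 library 1 was lower in every replication gene but Orc6 and in every mitosis gene but pim. Its median FPKM was 13.4 for replication genes, against 15.1 in control library 2 and 23.9 in control library 1. For mitosis genes these were 24.6, 25.2 and 55.3, and for all genes tested 13.4, 15.7 and 21.7. With PJ34 library 1 left out limma called 43 of 49 genes, and 69.9% of all genes; with PJ34 library 2 left out it called 0 of 49 and 3.23% of all genes. In both fits the PJ34 group is 1 library, whose spread is assumed to be that of the other groups.

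PARP1 KD and PJ34 were compared directly to set knockdown of PARP1 beside treatment with an inhibitor of PARylation. limma called 0 of 49 genes, against 2.57% of all genes, and 13 of 49 had an unadjusted p of at most 0.05, all higher after PARP1 KD (8 replication, 2 cell cycle control and 3 mitosis genes), against 23.7% of all genes. Both PARP1 KD libraries lay above both PJ34 libraries in 30 of 49 genes (61.2%), against 43.8% of all genes, and below both in 2 of 49 (Orc6 and pim), against 17.3%. The 30 genes were 17 of 21 replication, 8 of 11 cell cycle control and 5 of 17 mitosis genes. Median log2 differences were 1.57 for replication, 1.03 for cell cycle control and 0.90 for mitosis genes, beside 0.67 for all genes. The smallest p values above belonged to aurB, at 2.30 ± 0.72 (SE, limma adjusted p = 0.108), and Cdc6, at 2.26 ± 0.76 (adjusted p = 0.128), and below to Orc6, at −0.73 ± 0.56 (adjusted p = 0.398), and pim, at −0.58 ± 0.55 (adjusted p = 0.492).

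**Figure D3:**
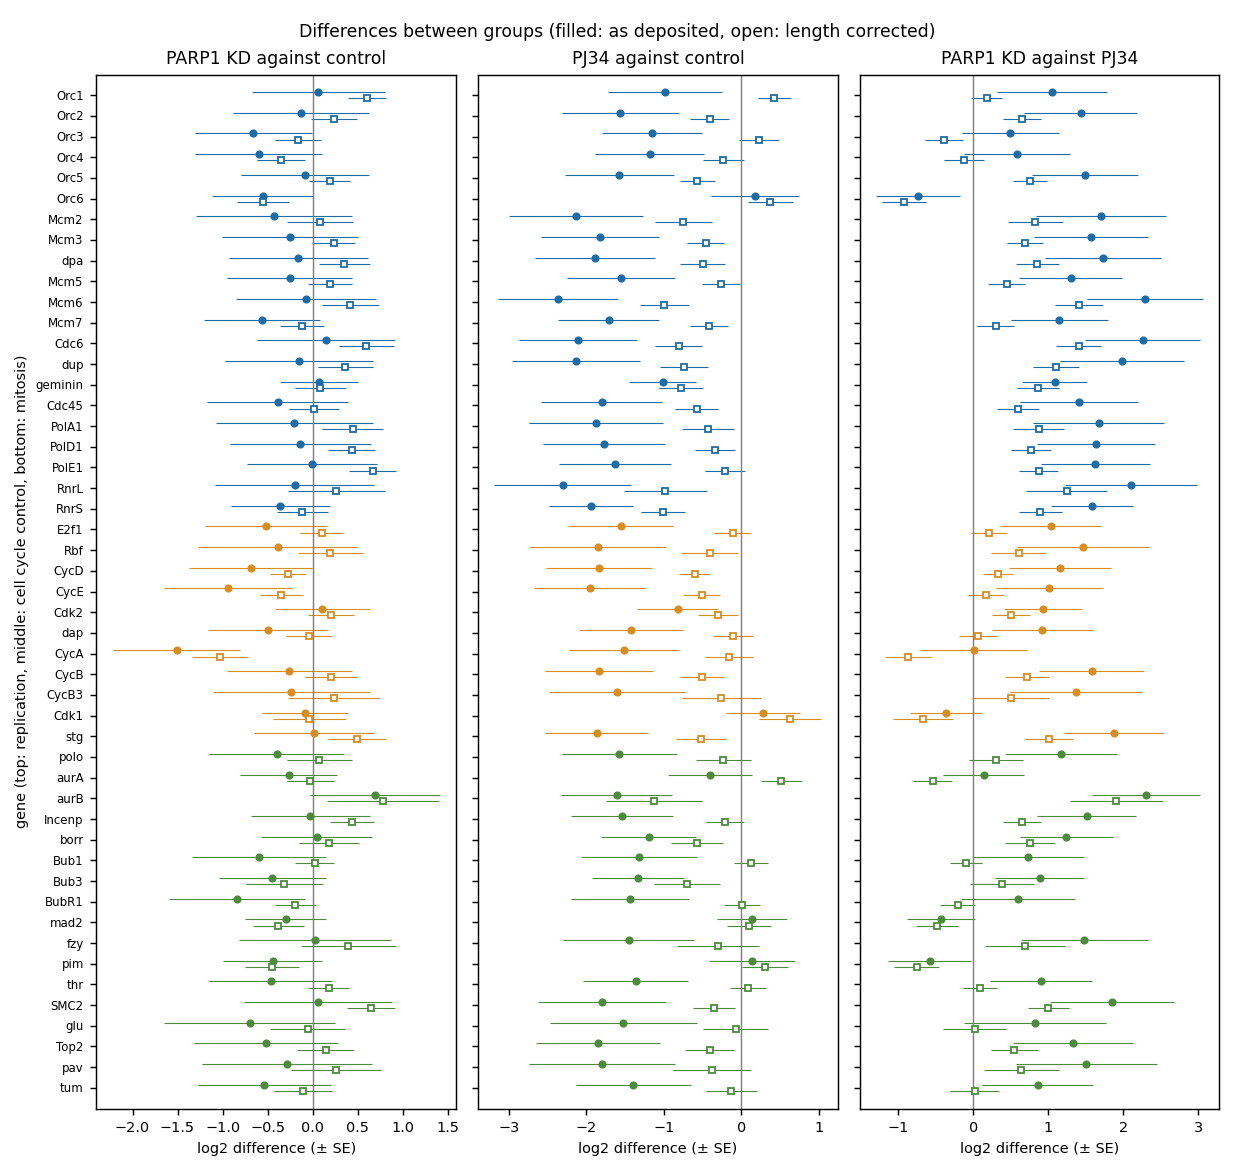
Log2 difference with its SE (x axis) of each of the 49 genes (y axis) in the 3 comparisons, as deposited (filled circles) and length corrected (open squares), with replication genes in blue, cell cycle control in orange and mitosis in green. After PJ34 most filled circles lie below 0 and the length corrected values lie nearer to 0, with RnrS at −1.94 and −1.01.

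Removing the length trend of each library lowered the SE of a difference, for Cdc6 from 0.76 to 0.30, and altered which genes stood out. The correction also removes any effect of a treatment that goes with length, and any shift of a library as a whole. After PARP1 KD limma again called 0 of 49 genes (0.0% of all genes), and both libraries lay above both controls in 13 of 49, against 23.7% of all genes, and below in 7 of 49, against 24.7%. Of the 13 genes above, 8 were replication genes: Orc1, PolE1, Cdc6, PolD1, Mcm6, dpa, Mcm3 and Mcm5. The 7 below were CycA, Orc6, pim, CycE, mad2, CycD and Orc4. CycA was the furthest below, at −1.03 ± 0.31 (SE, limma adjusted p = 0.591, range over all settings 0.0956 to 1). Medians were 0.23 for replication, 0.10 for cell cycle control and 0.07 for mitosis genes, beside 0.02 for all genes.

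After PJ34 the length corrected median of the replication genes was nearer to control than as deposited. The median of all genes moved as well, from −1.08 as deposited to −0.05. Median centring alone, without regard to length, also brought the replication median nearer to control. Of the replication genes 18 of 21 had a negative length corrected difference, with Orc1, Orc3 and Orc6 positive, against 3700 of 7009 negative over all genes. limma called 0 of 49, against 3.08% of all genes. Both PJ34 libraries lay below both controls in 18 of 49 genes (36.7%), against 27.3% of all genes, and 13 of these 18 were replication genes (Cdc6, dup, geminin, Cdc45, RnrS, Orc2, Orc5, PolD1, dpa, Mcm3, Mcm5, Mcm6 and Mcm7), with 1 mitosis gene, Incenp. They lay above in 3 of 49 (Orc1, aurA and Bub1), against 27.6%. Medians were −0.46 for replication, −0.30 for cell cycle control and −0.21 for mitosis genes, beside −0.05 for all genes. RnrS was at −1.01 ± 0.29 (SE, limma adjusted p = 0.0934, range over all settings 1.7e-05 to 0.319).

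Within replication the length corrected levels after PJ34 were set out by the role of the genes. Relative to the mean of both controls, the median of the ribonucleotide reductase subunits was −0.63 in PJ34 library 1 and −1.35 in PJ34 library 2, that of the licensing genes −0.53 and −0.87, and that of the helicase −0.30 and −0.70. The polymerases were at −0.29 and −0.31, as was control library 2 at −0.31. The origin recognition complex was at 0.07 and −0.10. These medians are descriptions of 2 to 6 genes each. By gene, both PJ34 libraries lay below both controls in 4 of 4 licensing genes, 5 of 6 helicase genes (not Mcm2), 1 of 2 reductase genes (not RnrL), 1 of 3 polymerases and 2 of 6 origin recognition genes, together 13 of 21 where 27.3% of all genes did so. Some of these separations were narrow. The higher PJ34 library and the lower control were at 4.167 and 4.171 for dpa and 4.651 and 4.678 for Mcm5. They were at 2.964 and 2.974 for Orc2, 2.495 and 2.504 for PolD1, and 5.164 and 5.169 for the mitosis gene Incenp. The SE of a difference was 0.24 to 0.29 in these genes. Among mitosis genes the chromosomal passenger genes aurB, Incenp and borr were at −0.24 and −0.90, with control library 2 at −0.32, and the spindle checkpoint genes at −0.10 and 0.11.

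**Figure D4:**
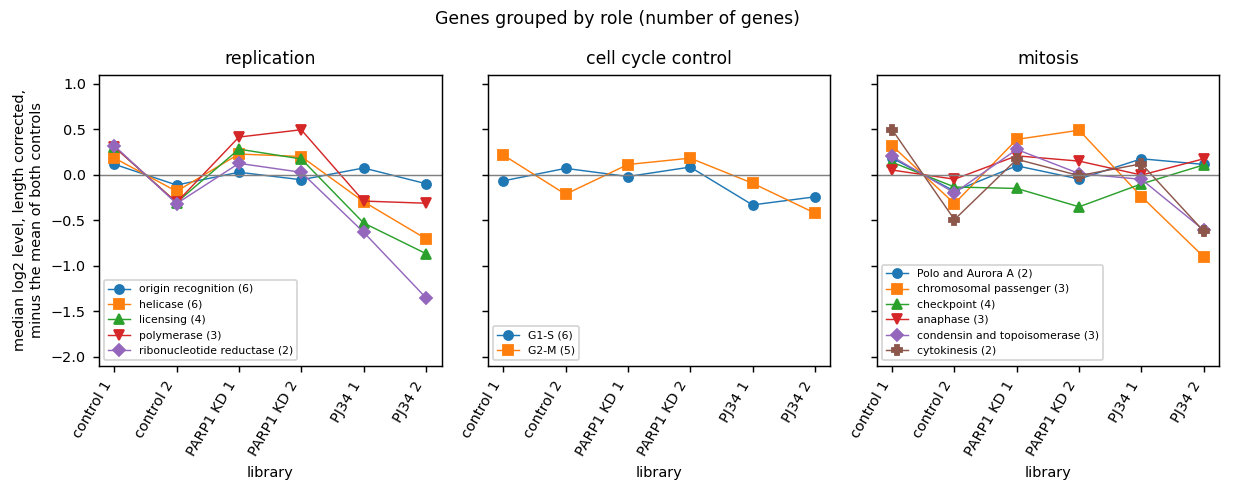
Median length corrected log2 level of the genes of each role minus the mean of both controls (y axis) in the 6 libraries (x axis), with the number of genes in the key. In the replication panel the medians of ribonucleotide reductase, licensing and helicase lie below both controls in both PJ34 libraries, and origin recognition stays between −0.11 and 0.11 in all 6 libraries.

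Between PARP1 KD and PJ34 the length corrected fit called 3 of 49 genes, which is 6.12% against 19.1% of all genes. They were Cdc6, at 1.40 ± 0.30 (SE, limma adjusted p = 0.0323, range over all settings 0.00037 to 0.659), Mcm6, at 1.41 ± 0.32 (adjusted p = 0.0347, range 9.1e-06 to 0.63), and SMC2, at 1.002 ± 0.27 (adjusted p = 0.0473, range 0.00021 to 0.746), each higher after PARP1 KD. Both PARP1 KD libraries lay above both PJ34 libraries in 33 of 49, against 39.8% of all genes, and below in 6 of 49 (Orc6, CycA, pim, aurA, mad2 and Orc3), against 37.6%. Of 21 replication genes 18 were above, and the medians were 0.77 for replication, 0.33 for cell cycle control and 0.30 for mitosis genes, beside 0.03 for all genes. Cdc6, Mcm6 and SMC2 were not called once PJ34 library 2 was left out of this fit, when 0 of 49 were, and 9 of 49 were called with only the 4 libraries compared, against 25.8% of all genes.

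Replication was set apart from mitosis within each library, where depth and treatment are shared. The length corrected median of the 21 replication genes minus that of the 17 mitosis genes was −0.93 and −0.76 on the log2 scale in the controls, −0.84 and −0.84 after PARP1 KD and −0.93 and −0.62 after PJ34. PARP1 KD lay within the range of the controls, and PJ34 overlapped it. As deposited the gaps were −1.18 and −0.70 in the controls, −0.96 and −0.88 after PARP1 KD and −0.83 and −1.32 after PJ34. On either scale the groups overlapped in this gap, which is between medians of different genes. With each gene taken relative to its own mean in the controls, which makes the controls mirror each other, the length corrected gap was 0.01 and −0.01 in the controls, 0.08 and 0.25 after PARP1 KD and −0.32 and −0.18 after PJ34. As deposited it was −0.10 and 0.10, 0.09 and 0.27, and −0.39 and −0.18 in the same order. By this measure both PJ34 libraries lay below the other 4 on both scales, while PARP1 KD lay above both controls only after length correction. No test was made of these gaps.

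9 of the 49 genes had several transcripts, which share most of their sequence, so that the authors' software divided fragments between them by estimate. For CycB the transcript RC was at 0 and 0.00105 FPKM in the controls, 23.5 and 32.2 after PARP1 KD and 0.338 and 6.2e-05 after PJ34. Transcript RA was at 94.9 and 45.9, 40.8 and 16.4, and 38.7 and 8.26 FPKM in the same order, so that RC took 36.3% and 65.4% of CycB after PARP1 KD and at most 0.866% elsewhere. In a limma fit on transcripts, CycB RC was the only 1 of 58 transcripts of these genes called after PARP1 KD (log2 difference 4.83 ± 0.56 SE on the log2(FPKM + 1) scale, adjusted p = 0.0248, 0.0321 to 0.228 without 1 library each), against 0.153% of all transcripts. It was also the only 1 called between PARP1 KD and PJ34 (4.62 ± 0.56, adjusted p = 0.0185, 0.0106 to 0.151 without 1 library each), against 2.74%. The call against control was lost without control library 1 and without either PARP1 KD library, and a value of 0 in such a table can be a failed estimate.

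The leading transcript was the same in every library for Cdk2, CycD, CycE, borr and dap. In CycA, polo and E2f1 it differed between the controls. CycA RB was at 8.1e-05 and 21.7 FPKM in the controls, 22.7 and 10.8 after PARP1 KD and 0.000158 and 2.34 after PJ34, while CycA RA was at 92.7 and 20.97, 7.84 and 4.17, and 41.0 and 8.57. In polo the transcript RB held 58.1% of the FPKM in control library 1 and 55.3% in PJ34 library 1, and at most 0.0457% in the other 4. E2f1 RA held 72.2% and 21.8% in the controls, 9.95% and 9.62% after PARP1 KD and 57.8% and 33.9% after PJ34. In all 3 genes control library 1 was nearest to PJ34 library 1, and the PARP1 KD libraries were nearer to control library 2 than to control library 1.

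**Figure D5:**
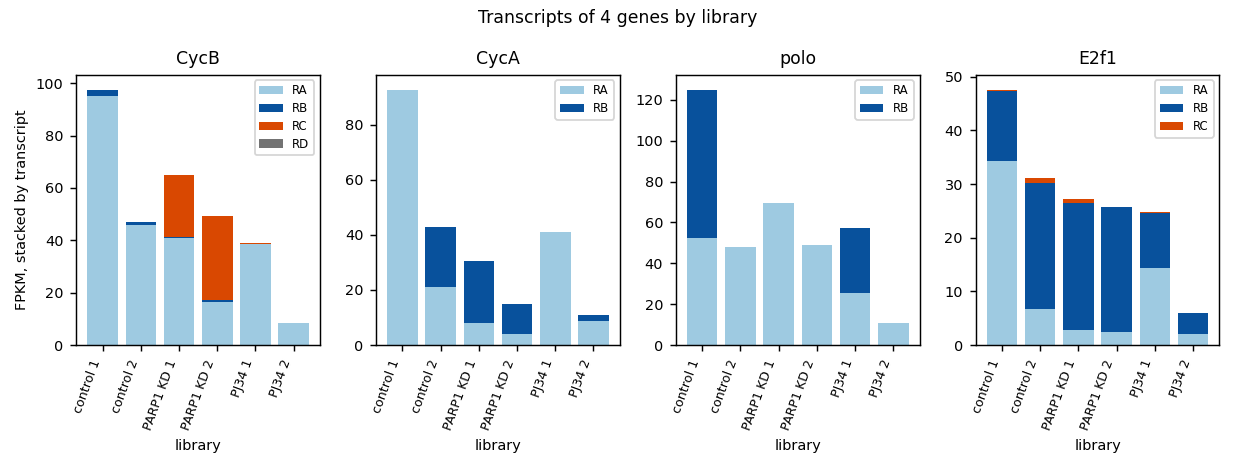
FPKM of CycB, CycA, polo and E2f1 (y axis) in the 6 libraries (x axis), stacked by annotated transcript. CycB RC appears in both PARP1 KD libraries, at 23.5 and 32.2 FPKM, while polo RB appears in control library 1 and PJ34 library 1 only.

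Genes of the same pathways that are not among the 49 were counted for comparison. Of 24 other replication genes, among them those for PCNA, the GINS complex, replication factor C and replication protein A, all 24 were tested and 0 was called in any comparison; their medians were −0.11 for PARP1 KD against control, −1.26 for PJ34 against control and 1.11 between the treatments. Of 36 other mitosis genes, among them those of the kinetochore, condensin, cohesin and the anaphase promoting complex, 35 were tested and 0 was called, with medians of −0.12, −1.39 and 1.08. With the length trend removed, 3 replication genes were called higher and 1 lower after PARP1 KD than after PJ34 (PCNA, RPA3, DNAlig1 and Cdc7), and 4 mitosis genes higher and 2 lower (shtd, Spc25, Mis12, cid, Klp3A and Zw10), against 19.1% of all genes called in either direction. Length corrected medians of the other replication genes were 0.04, −0.38 and 0.43, and those of the other mitosis genes 0.26, −0.18 and 0.33, in the same order of comparisons.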

How the data were processed

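RNA-seq of S2 cells (2 control, 2 PARP1 KD and 2 PJ34 libraries) was analysed. The authors estimated the deposited FPKM per transcript with Cufflinks 2.1.1 and Cuffdiff after alignment to dm3 with TopHat2 2.0.10 and Bowtie2 2.1.0.0, per the labels and the study's methods. FPKM of 21081 transcript rows were summed by CG number into 14012 genes. The treatment columns name the group but not the dose, so p-values measure the spread between biological replicates, as the study calls them, that in the treated groups also differ in dose.

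FPKM are not counts, so log2(FPKM + 1) was fitted in limma 3.58.1 (R 4.3.3) with 1 mean per group over all 6 libraries, moderation with an intensity trend, and adjusted after Benjamini-Hochberg over the 7308 genes whose mean FPKM reached 1 (7009 with a length). A fold change on this scale understates that of low genes. An exact permutation test of 2 against 2 cannot go below 0.333 and was not made. The fit was run on simulated data with independent noise in each library. That run checked the code and does not show the power or error rate of the fit in these data. Transcript lengths (median per gene) came from BDGP6; coordinates are those of the table. Depth was estimated from the steps of the lowest values, read as 1 fragment. Alternatives were pseudocounts of 0.1 and 5, other filters (no filter, a mean of at least 5), quantile normalization, median centring, length correction (subtracting each library's lowess trend on log10 length), only the 4 libraries compared, transcript rows, and leaving out each library. Length correction combined with fewer libraries, and leaving out libraries in the fit of CycB RC, were added after the data were seen.

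The 49 genes, their sets and the pathway and marker lists were chosen with earlier results of these data known. Levels in every library were given for Mcm, Orc, polymerase, ribonucleotide reductase and licensing genes, cyclins, Cdk1, Cdk2, stg, E2f1, Rbf, dap, polo, aurA, aurB, BubR1 and called genes, and statistics for the 2 smallest p values per direction and comparison. Incenp, SMC2, RnrS and CycA with length correction, and single transcripts, were added after their values were seen. Symbols came from the RefSeq gene table (13636 of 14012 matched). Python 3.11.15 with numpy 2.4.6, pandas 2.3.3, scipy 1.17.1 and matplotlib 3.10.9 was used.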

Additional observations from a re-analysis of the deposited data

How the results depend on the processing

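With 2 libraries a group and transcript length moving with the library, counts of called genes and medians depended on single libraries. The number of the 49 genes called for PARP1 KD against control was 0 in all settings but the transcript fit, with 1. For PJ34 against control it was 0 to 43 when each library was left out in turn (43 without PJ34 library 1, 2 without control library 2) and 1 with length correction without control library 2. For PARP1 KD against PJ34 it was 0 to 40 when each library was left out (40 without PJ34 library 1), 1 with quantile normalization, with only the 4 libraries and with transcript rows, 3 with length correction, and 9 with length correction and only the 4 libraries, or without control library 1, or without control library 2. The replication median of PARP1 KD against control was 0.23 with length correction, also with only the 4 libraries and without PJ34 library 2, 0.44 with length correction without control library 1, and −0.74 to 0.29 when each library was left out; the mitosis median was 0.32 with length correction without control library 1. For PJ34 against control the replication median was −0.63 with median centring, −0.46 with length correction, also with only the 4 libraries, and with length correction −0.27 without control library 1 and −0.33 without PJ34 library 2; the mitosis median was −0.29 with centring, −0.21 with length correction, also with only the 4 libraries, 0.15 without control library 1 and −0.013 without PJ34 library 2. The mitosis median of PARP1 KD against PJ34 was 0.10 to 1.92 when each library was left out. Leaving out libraries turned the sign of Cdk2 for PARP1 KD against control (−0.0572 to 0.2749) and of Cdk1 (−0.0887 to 0.6556) and Orc6 (−0.0341 to 0.3878) for PJ34 against control. Of the other values recomputed, 44 counts stayed within 1.5 times and 90 medians stayed within the spread between libraries, but 7 of these medians turned positive, all for PARP1 KD against control: replication with quantile normalization (0.11), median centring (0.19) and length correction without control library 2 (0.03), and mitosis with length correction (0.07, also with only the 4 libraries and without PJ34 library 2) and without control library 1 (0.16). Of the single-gene values, 163 kept direction and side of the threshold, 8 gained and 6 lost a call; why values moved was not tested. Where 1 library of a compared group was left out, the other was assumed to vary like the other groups. No paired analysis was possible because the labels give the treated groups no shared replicate numbers. In PJ34 library 2 the estimated depth gave 20.2 fragments for CycB3, the fewest of any of the 49 genes, which limits fold differences there.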

Other observations

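Some blood cell genes differed between libraries within a group. Pxn, which encodes peroxidasin, was at 4.09 and 102 FPKM in the controls, 94.7 and 75.2 after PARP1 KD and 4.97 and 0.61 after PJ34. Sr-CI, a scavenger receptor, was at 0.94 and 2.50 FPKM in the controls, 1.58 and 1.71 after PARP1 KD and 33.9 and 15.0 after PJ34. For Pxn control library 1 lay with the PJ34 libraries and control library 2 with the PARP1 KD libraries, while Sr-CI was high in both PJ34 libraries alone. Their part in the levels of the replication and cell cycle genes was not tested.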
